A study of Mus musculus with 3 samples.

Results

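Membrane traffic inside a cell runs on vesicles that are budded by coats, steered by Rab GTPases and fused by SNARE proteins. Clathrin with its adaptor complexes shapes a vesicle, dynamin cuts it free, and Rabs switch between a GDP and a GTP form to recruit motors, tethers and sorting factors to each compartment. Sorting nexins and retromer return cargo from endosomes. In endothelium the same machinery internalizes receptors such as those for VEGF and carries junction proteins back to the surface, and it also forms and releases Weibel-Palade bodies, the storage granules of von Willebrand factor. Genes of this machinery were examined here in glomerular endothelial cells (GEC) of adult mice. They were chosen by symbol, as every Rab, Rab11 effector, clathrin chain, dynamin, subunit of the adaptor complexes AP-1 to AP-4, syntaxin, VAMP, sorting nexin and retromer core gene, with Eea1, that a probe set of the array names alone. The rule found 149 genes, measured by 156 probe sets, among 19938 genes and 21789 probe sets in all.

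All 3 arrays form 1 group, so the data hold no comparison between conditions. The cells came from adult Tie2-GFP mice, which carried the transgene Tg(TIE2GFP)287Sato on a mixed background that was mainly CD-1. The promoter of Tek (Tie2) drives green fluorescent protein in this line, and what was sorted is therefore every cell of the sieved glomeruli with enough of that fluorescence. Each array held RNA from 1 kidney, with no pooling, and the arrays are named replicates 1, 3 and 5. The labels give no sex and no age beyond adult.

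Each gene was set against a detection level of 100, which is 6.64 on the log2 scale of the deposited signals. Levels are means of log2 signal ± SD over the 3 arrays (n = 3). A gene was called above or below where limma gave an adjusted p under 0.05, and neither otherwise. Levels of different genes are not ranked against each other, because their probe sets differ. The cells had the markers of endothelium, with 6 of 6 called above, and 24 of 25 measured markers of podocytes, mesangium, tubules, leukocytes, red cells and platelets were called below. The exception was Podxl, a sialomucin gene that endothelium expresses too. No marker was at 0. The summed linear signal of the 25 markers was between 1625 and 1680 on the 3 arrays, most of it from Podxl. That of the 24 without Podxl was between 691 and 741. The median log2 signal of these 24 was 5.03, 4.97 and 5.00 on replicates 1, 3 and 5, against 5.01, 5.01 and 5.00 over all genes. Their sum is therefore not a measure of the share of other cells. The sum of the 6 endothelial markers was 15163, 9321 and 17047 on replicates 1, 3 and 5.

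Of the 149 trafficking genes, 45 (30.2%) passed as above the level and 75 as below, and 29 were called neither. Over all genes measured, 14.9% were above, 73.8% below and 11.3% neither. When the variance prior was taken from all probe sets, 52 were above and 75 below (15.9% and 75.5% of all genes). At a level of 50, 77 were above and 47 below (27.7% and 55.8% of all genes), and at 200, 27 were above and 107 below (7.39% and 85.5%). At a level of 28.9, the 95th percentile of the means of olfactory receptor probe sets, 105 were above and 22 below (43.9% and 36.4%). With only probe sets of that level or more tested, 44 were above and 44 below (26.4% and 50.4% of the genes left). With Holm adjustment in limma, 0 were above, against 0.241% of all genes, while 45 were above at an unadjusted p under 0.05. The median level was 6.22, against 5.02 over all genes. In these RNA samples of sorted populations, fewer cells that express a gene and less RNA per cell cannot be told apart. Rabs were called above less often than the remaining genes, in 12 of 59 (20.3%) against 33 of 90 (36.7%), and no test of that difference was made.

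**Figure D1:**
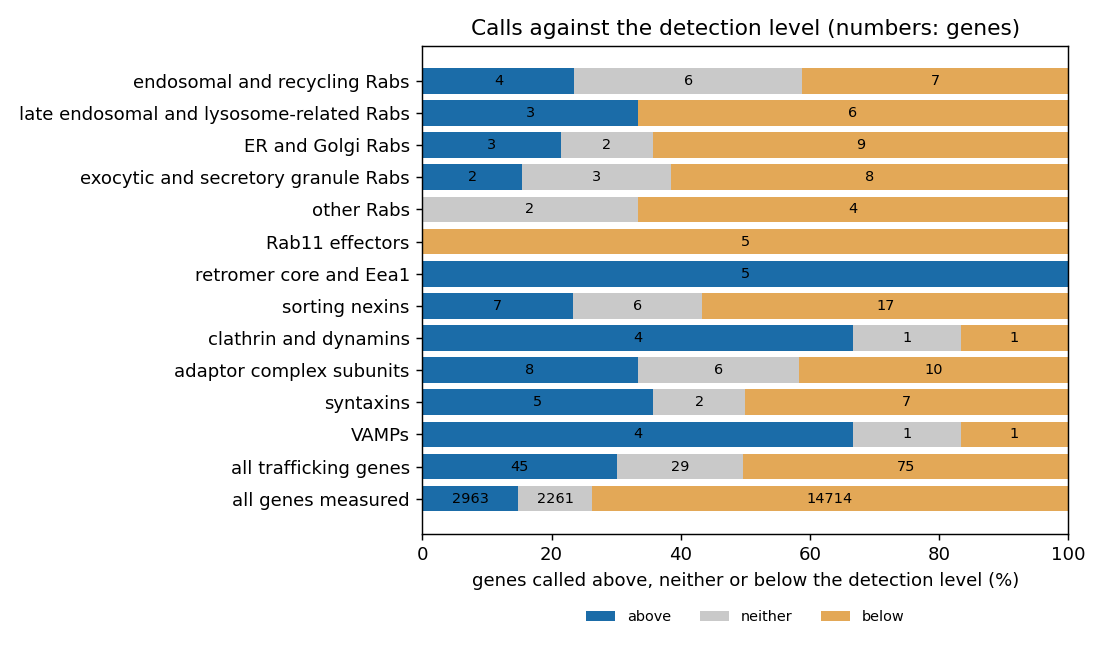
Share of genes in each class with each call in limma against the detection level of 100 (bars, percent of measured genes, with the number of genes printed inside). All 5 genes of the retromer core with Eea1 were above and all 5 Rab11 effectors were below, and the lowest bar shows the same shares for all genes measured.

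Among genes of the early endosome, Rab5c, Eea1 and Rab21 were above the level and Rab5a and Rab5b were not called. Rab5 recruits the tether Eea1 to early endosomes and drives their fusion. Rab5c had 7.45 on each array and was called above (adjusted p = 0.00309). Rab5a had 6.66, 6.66 and 6.81 on replicates 1, 3 and 5, and Rab5b had 6.63, 5.50 and 6.46. Neither of these was called, and Rab5b was lowest on replicate 3 in both of its probe sets. Eea1 itself had 7.93 on each array and was above (adjusted p = 0.000622). Rab21, which acts in the uptake of integrins, had 9.56, 9.54 and 9.56 (adjusted p = 7.41e-05), well above the level on every array. Rab22a and Rab31, relatives of Rab5, were called neither, at 6.93 ± 0.19 and 6.73 ± 0.13.

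Rabs of recycling were split. Rab11a, the Rab of the recycling endosome, had 10.27, 10.56 and 9.80 on replicates 1, 3 and 5 and was called above (adjusted p = 0.000131). Rab14, which acts between the Golgi and endosomes, had 9.60 on each array (adjusted p = 7.33e-05). Rab4a, a Rab of rapid recycling, was below at 5.53, 5.53 and 5.47 (adjusted p = 0.000977), and its paralog Rab4b was called neither at 6.27 ± 0.29. Rab35, which also serves recycling, was below at 5.29 on each array. At the olfactory receptor level of 28.9, Rab4a and Rab35 turned to above. Rab17 and Rab25, known mainly from epithelia, were below at 4.96 and 4.85 on each array. In all, 4 of 17 endosomal and recycling Rabs were above (23.5%), 7 below and 6 neither. Of all genes, 14.9% were above and 73.8% below.

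The second Rab11 gene gave no settled call. Its probe set with the higher mean had 6.99, 5.65 and 7.68 on replicates 1, 3 and 5 (6.77 ± 1.03, adjusted p = 0.789), and it crossed the level between arrays. The other probe set of Rab11b had 4.95 on each array and was called below (adjusted p = 0.000254). Without replicate 3, the first was called above (adjusted p = 0.0402). The 5 genes of the Rab11 family interacting proteins, which link Rab11 to motors and membranes, were all below. Rab11fip1 had 4.52 ± 0.04, Rab11fip2 had 4.64 on each array, Rab11fip3 6.09, Rab11fip4 4.34 and Rab11fip5 5.31 ± 0.10. None was above by the unadjusted p of limma (under 0.05), nor when the prior came from all probe sets. With each mean under the level, none could be, so this adds nothing to the calls. Of all genes, 73.8% were below, and 5 of 5 was not tested against that share. At a level of 50, 3 of the 5 effectors were below and 1 above, and at the olfactory receptor level of 28.9, 1 was below and 2 were above.

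Late endosomal Rabs were called above or below without exception, and Rab29 lay nearest to the level. Rab7, which directs late endosomes to lysosomes, had 9.83, 9.87 and 10.22 on replicates 1, 3 and 5 (adjusted p = 8.27e-05). Rab9, which returns cargo from late endosomes to the Golgi, had 8.35, 8.88 and 8.88 (adjusted p = 0.000444). Rab24, which has been tied to autophagy, had 8.05, 8.05 and 7.97 (adjusted p = 0.000509). These 3 of 9 (33.3%) were above on every array. Over all genes, 14.9% were called above and 73.8% below. The paralogs Rab7b at 3.56 and Rab9b at 4.48 were below on each array, as were Rab36 at 5.07, Rab38 at 4.42 and Rab32 at 5.03 ± 0.06. Rab32 and Rab38 serve melanosomes and other lysosome-related organelles. Rab29 was below at 6.19 ± 0.23 (adjusted p = 0.0437), and that call was lost without any 1 of the arrays, at adjusted p = 0.0575, 0.0528 and 0.0561 without replicates 1, 3 and 5.

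Among Rabs of the ER and the Golgi, calls were divided between Rab2a and Rab2b and between Rab6a and Rab6b. In the pairs Rab33a and Rab33b, and Rab39 and Rab39b, both genes were below. Rab1a, which moves vesicles from the ER to the Golgi, had 11.92, 11.11 and 11.77 on replicates 1, 3 and 5 (adjusted p = 7.83e-05). Rab2a, which acts between the same compartments, had 10.58, 9.87 and 10.90 (adjusted p = 0.0002), and its second probe set had 9.57, 9.30 and 10.02 and was above too. Rab6a, a Rab of transport within the Golgi, had 8.25, 8.28 and 8.30 (adjusted p = 0.000288). All 3 were above on every array, with Rab1a and Rab2a lowest on replicate 3. Rab2b was below at 5.37 on each array and Rab6b, known mainly from neurons, at 4.73. Rab1b was called neither at 6.85 ± 0.47, and so was Rab18, a Rab of lipid droplets and the ER, with 6.61, 8.29 and 6.61. The other 7 of these 14 genes, Rab19, Rab30, Rab33a, Rab33b, Rab39, Rab39b and Rab43, were called below. Thus 3 of the 14 (21.4%) were above and 9 below, beside 14.9% and 73.8% of all genes.

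Of 13 exocytic and granule Rabs, Rab10 and Rab8b were above, 8 were below and 3 were neither. The share above (15.4%) was near the 14.9% of all genes, of which 73.8% were below. Rab10 had 8.95, 9.27 and 9.22 on replicates 1, 3 and 5 (adjusted p = 0.000131) and Rab8b had 8.18, 8.41 and 8.41 (adjusted p = 0.000344). Both act in transport from the Golgi to the plasma membrane. Rab8a was called neither, with 7.70, 6.79 and 6.83, although it was over the level on each array. Rab13, a Rab of tight junction traffic, had 6.84, 7.17 and 6.92 and was called neither (adjusted p = 0.0809), as was Rab12 at 6.87 ± 0.09. With the prior from all probe sets, both were called above, at adjusted p = 0.0495 and 0.0242.

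Rabs of secretory granules were all below. The 7 that are known from Weibel-Palade bodies, Rab3a, Rab3b, Rab3d, Rab15, Rab27a, Rab33a and Rab37, were called below, with a median level of 4.41 (73.8% of all genes were below, and their median was 5.02). None was above by the unadjusted p of limma (under 0.05), nor when the prior came from all probe sets. As every mean lay under the level, neither choice could have called one above. Rab27a, the principal Rab of these granules, had 5.74 on each array (adjusted p = 0.00212). Rab3d had 5.80 on each array (adjusted p = 0.0027) and Rab37 4.41. Rab15 had 3.27, 3.30 and 3.21 on replicates 1, 3 and 5, and Rab33a 2.99, 3.07 and 2.99. No array had any of them at the detection level. At the olfactory receptor level of 28.9, Rab27a and Rab3d were called above, so a call below 100 does not show that these transcripts were absent. The remaining granule Rabs Rab3c, Rab26 and Rab27b were also below, at 3.56 and 4.33 ± 0.01 and 4.29. Of the 6 Rabs in no other class, Rab40b, Rab40c, Rab42 and Rab44 were below, and Rab23 and the ciliary Rab28 were called neither at 7.02 ± 0.42 and 6.72 ± 0.39.

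**Figure D2:**
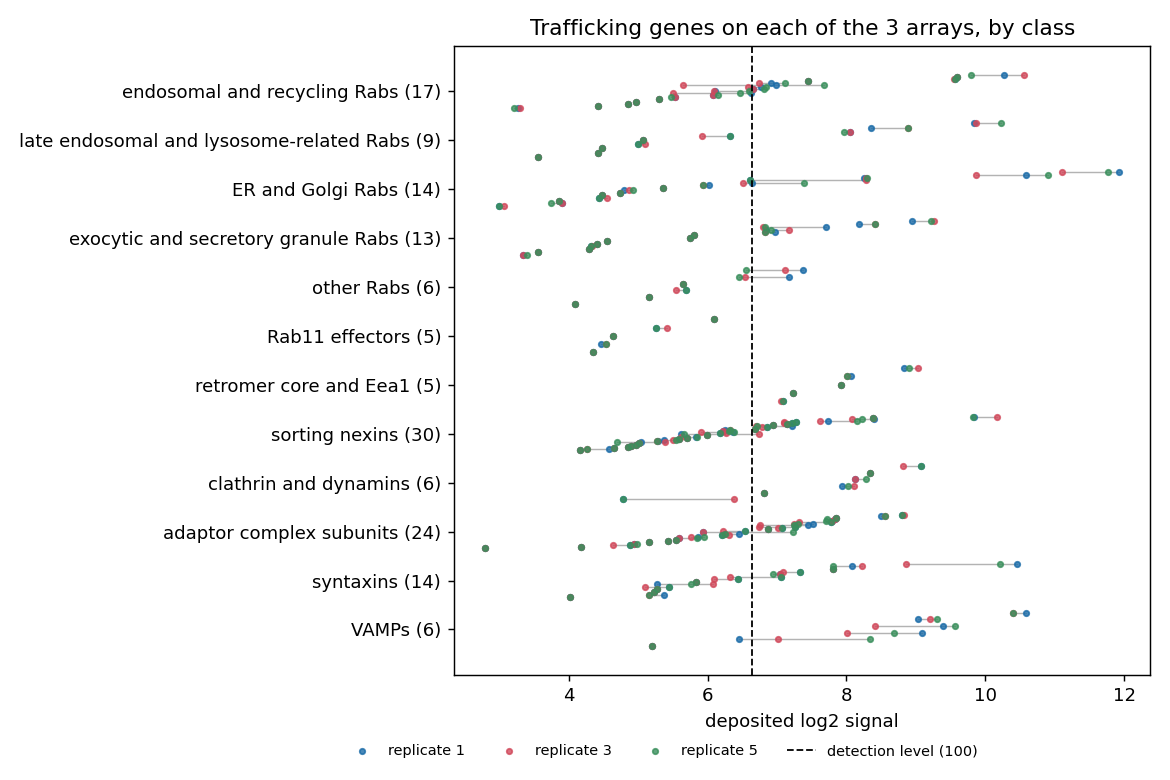
Deposited log2 signal of each of the 149 trafficking genes on replicates 1, 3 and 5 (points, with a grey line from the lowest to the highest array), by class with the number of genes in brackets, and the detection level of 100 as a dashed line. Where arrays have identical values, as for Rab14 at 9.60, the points lie on top of each other, and the endosomal, late endosomal, ER and Golgi, and exocytic Rabs have genes far on either side of the level.

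All 4 genes of the core of retromer, the coat that recovers receptors from endosomes, were called above. Of all genes, 14.9% were above, and the retromer count was not tested against that share. Vps26a had 7.09, 7.07 and 7.09 on replicates 1, 3 and 5 (adjusted p = 0.0243) and Vps26b had 8.07, 8.005 and 8.005 (adjusted p = 0.000499). Vps29 had 8.82, 9.03 and 8.90 (adjusted p = 0.000132). Vps35, the scaffold of the complex, had 7.23 on each array (adjusted p = 0.00915). All 4 genes were over the level on every array, and the paralogs Vps26a and Vps26b were both called above. At a detection level of 200, Vps26a and Vps35 were called below, as were 85.5% of all genes.

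The sorting nexins that work with retromer were called above or neither. Snx5 had 8.39, 8.08 and 8.23 on replicates 1, 3 and 5 (adjusted p = 0.000463) and Snx6 had 7.73, 7.62 and 8.16 (adjusted p = 0.0026). Their partners Snx1, with 6.69 on each array, and Snx2, with 7.21, 6.69 and 6.71, were called neither. Thus all 4 of these BAR domain nexins lay over the level on every array. On replicates 1, 3 and 5 taken singly, 20.3%, 19.7% and 20.5% of all genes were at or over it. Snx5 and Snx6 were called above, as were 14.9% of all genes. Snx1 was also above with the prior from all probe sets. Snx3, which sorts the Wnt carrier Wntless with retromer, had 9.83, 10.17 and 9.83 (adjusted p = 7.88e-05). Snx27, whose PDZ domain binds receptor tails for retromer, had 7.15 on each array (adjusted p = 0.015), and was below at a level of 200.

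Over the 30 sorting nexins, 7 (23.3%) were above, 17 below and 6 neither, beside 14.9% of all genes above and 73.8% below. Snx12, Snx13 and Snx14 completed those above, at 7.22 ± 0.10, 8.38 on each array and 7.18 ± 0.06. Snx9, a binding partner of dynamin, had 6.85, 6.78 and 6.85 and was called neither (adjusted p = 0.21), as was the recycling nexin Snx4 with 6.95 on each array (adjusted p = 0.0678). Both were called above with the prior from all probe sets. Snx17, which recycles integrins and lipoprotein receptors, was below at 6.30 ± 0.04 (adjusted p = 0.0489). Its call was lost without replicate 1 (adjusted p = 0.0878) and without replicate 5 (adjusted p = 0.0679).

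Clathrin was above the level in all its chains, where 14.9% of all genes were above and 73.8% below. This was not tested against those shares. Cltc, the heavy chain, had 9.07, 8.81 and 9.07 on replicates 1, 3 and 5 (adjusted p = 0.000141). The light chain genes Clta, with 8.33 on each array, and Cltb, with 7.94, 8.11 and 8.02, were above too (adjusted p = 0.000256 and 0.000568). No array had a clathrin gene under the level. Dnm2, the dynamin of most tissues, had 8.13, 8.13 and 8.28 (adjusted p = 0.000398). Dnm1, the dynamin of synapses, had 4.79, 6.38 and 4.79, so it was highest on replicate 3. It was called below (adjusted p = 0.0318), but not with the prior from all probe sets (adjusted p = 0.0879), without replicate 1 (adjusted p = 0.115) or without replicate 5 (adjusted p = 0.116). Dnm3 had 6.81 on each array and was called neither (adjusted p = 0.251), against above with the prior from all probe sets (adjusted p = 2.2e-05).

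AP-2, the adaptor of clathrin at the plasma membrane, was above in 4 of its 5 genes (80%, against 14.9% of all genes). Ap2m1, its cargo-binding medium subunit, had 8.81, 8.83 and 8.81 on replicates 1, 3 and 5 (adjusted p = 0.000128). Ap2b1 had 7.77, 7.31 and 7.77 (adjusted p = 0.00463) and the small subunit Ap2s1 had 7.86 on each array (adjusted p = 0.000759). All of these were over the level on every array. The large alpha subunit has 2 genes, which were called differently. Ap2a2 had 7.07, 7.01 and 7.07 and was above (adjusted p = 0.0301), although not without replicate 1 (adjusted p = 0.0559), without replicate 5 (adjusted p = 0.0527) or at a level of 200. Ap2a1 was below with 5.55 on each array (adjusted p = 0.00108). The different calls depended on the level of 100, since at the olfactory receptor level of 28.9 both were above and at 200 both were below. The share of AP-2 genes above depended on the level too. At 200, only 2 genes of all the adaptor complexes were above, and Ap2m1 was the only AP-2 gene among them.

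At the detection level used for the calls, the adaptors of internal membranes had a smaller share of genes above than AP-2. This difference was not tested. AP-1, which works at the Golgi and endosomes, had 1 of 8 genes above (12.5%), near the 14.9% of all genes. Of the rest of AP-1, 4 were below and 3 neither, where 73.8% of all genes were below. Ap1g1 was above with 7.51, 7.25 and 7.30 on replicates 1, 3 and 5 (adjusted p = 0.00704). The medium subunit Ap1m1 was called neither at 6.43 ± 0.19, and Ap1m2, the medium subunit of epithelia, was below at 4.17 on each array. Ap1s1 was called neither at 7.09 ± 0.30 and was above without replicate 3 (adjusted p = 0.00824). Ap1s2 at 6.31 ± 0.12 was also neither, and below with the prior from all probe sets (adjusted p = 0.0198). Ap1b1, Ap1g2 and Ap1s3 were below. No AP-1 subunit other than gamma thus had a gene called above.

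AP-3, which sorts cargo to lysosomes and related organelles, had 2 of 7 genes above (28.6%, against 14.9% of all genes). Ap3m1 had 7.80, 7.80 and 7.71 (adjusted p = 0.00103), but its other probe set had 5.81, 6.07 and 5.81 and was called below (adjusted p = 0.00609). Ap3s1 was above in each of its 3 probe sets, which had means of 7.79, 7.35 and 7.30. Ap3b1 had 7.45, 6.76 and 7.25 and was called neither (adjusted p = 0.0591), with its lowest value on replicate 3, and it was above without that array (adjusted p = 0.00739). Ap3d1 at 6.88 on each array was called neither, and above with the prior from all probe sets (adjusted p = 9.66e-06). The neuronal subunits Ap3b2, at 5.15 on each array, and Ap3m2, at 6.24 ± 0.06, were below, the latter not without replicate 1 (adjusted p = 0.0631) or replicate 5 (adjusted p = 0.0598). Of the 4 genes of AP-4, an adaptor of the trans-Golgi network, Ap4s1 was above at 8.54 ± 0.04 (adjusted p = 0.000188). Ap4b1, Ap4m1 and Ap4e1 were below, at 4.95 ± 0.03, 5.43 on each array and 4.81 ± 0.15, where 73.8% of all genes were below.

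VAMPs, the SNAREs that vesicles carry, were above in 4 of 6 measured genes (66.7%, against 14.9% of all genes). Vamp3, of recycling endosomes, had 9.04, 9.20 and 9.31 on replicates 1, 3 and 5 (adjusted p = 0.000111). Vamp8, of late endosomes and secretory vesicles, had 10.59, 10.40 and 10.40 (adjusted p = 6.88e-05). Both were nearly level between arrays. Vamp4, of the trans-Golgi network, had 9.39, 8.41 and 9.56 (adjusted p = 0.00126). Vamp5, first described in muscle, had 9.09, 8.002 and 8.69 (adjusted p = 0.00203), and both of these were lowest on replicate 3. Vamp7, of lysosomes, had 6.45, 7.02 and 8.34 and was called neither. Vamp1, a synaptic VAMP, was below at 5.21 on each array. Vamp2 was not analysed, because its probe set names a second gene.

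Of 14 syntaxins, the SNAREs of target membranes, 5 (35.7%) were above, 7 below and 2 neither. Beside these stand 14.9% of all genes above and 73.8% below. The syntaxins above came from the plasma membrane (Stx4a), the Golgi (Stx5a) and endosomes (Stx7, Stx8 and Stx12). Stx4a, which receives vesicles at the plasma membrane, had 10.46, 8.86 and 10.22 on replicates 1, 3 and 5 (adjusted p = 0.00137), well above the level even on replicate 3, its lowest array. Stx12, of recycling endosomes, had 7.81 on each array (adjusted p = 0.000866). The Golgi syntaxin Stx5a was above at 8.04 ± 0.21, and the late endosomal Stx7 and Stx8 at 7.01 ± 0.06 and 7.25 ± 0.14. The call of Stx7 was lost without replicate 1 (adjusted p = 0.0786) and without replicate 5 (adjusted p = 0.0503). The other surface syntaxins were below, with Stx1a at 5.28 on each array, Stx2 at 5.83 on each array and Stx3, which serves apical membranes of epithelia, at 5.45, 5.10 and 5.45. Stx6, of the trans-Golgi network, was below at 5.37, 5.15 and 5.15 (adjusted p = 0.000599). Stx16 and Stx17 were called neither. At the olfactory receptor level of 28.9, Stx1a and Stx3 turned to above.

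Genes closest to the level were called neither. Just over it by their means were Snx1 and Rab5a, given above, Rab28 with 7.17, 6.54 and 6.45 on replicates 1, 3 and 5, and Rab31 with 6.78, 6.59 and 6.84. Just under it were Ap1m1 with 6.54, 6.22 and 6.54, Ap3s2, the Golgi syntaxin Stx16 with 6.44, 6.10 and 6.44, and Ap1s2 with 6.45, 6.25 and 6.25. The arrays of Rab28 and Rab31 lay on both sides of the level, whereas every array of Ap1m1, Stx16 and Ap1s2 was under it.

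Members known mainly from neurons or neuroendocrine cells had 10 of 11 measured genes below and 1 neither (Dnm3), and all 4 known mainly from epithelia were below, where 73.8% of all genes were below. Neither count was tested against that share. No gene of these lists was above by the unadjusted p of limma (under 0.05), and only Dnm3, with a mean over the level, could have been. With the prior from all probe sets, Dnm3 was above and Dnm1 was no longer below.

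The genes that partner with this machinery were taken from lists of their own. Beside their counts stand the 14.9% of all genes above and 73.8% below. Of 20 measured Rab regulators, 5 were above and 10 below, with a median level of 6.18. Gdi2, which extracts Rabs from membranes, was at 8.96 on each array, and Chm and Rabggtb, which serve the prenylation of Rabs, were at 7.26 ± 0.38 and 7.41 on each array. Rabep1, an effector of Rab5, was at 7.47 ± 0.23, and Rabgap1 completed those above. Rabggta and Rabgef1 were among those below, at 5.13 and 4.24 on each array. Of 30 clathrin accessory genes, 7 were above and 15 below, with a median of 6.23. Dab2, an adaptor for lipoprotein and integrin receptors, was at 9.22 ± 0.16, the nucleator Fcho2 at 8.75 ± 0.17, the scaffold Itsn2 at 8.21 on each array and Eps15 at 7.72 ± 0.52. The neuronal Snap91, Amph and Dnajc6 were below, at 4.45, 2.99 and 4.27 on each array. Epn1 was below too, at 5.39 ± 0.09, as were Arrb2 and Hgs, at 5.73 and 5.37 on each array. Of 23 SNARE partners, 7 were above and 12 below, with a median of 6.29. Snap23, the partner of Stx4a at the plasma membrane, was at 10.70 ± 0.90. Stxbp3, which binds Stx4a, was at 8.09 ± 0.23. The neuronal Snap25 was below at 4.19 ± 0.03, and so were Napa and Ykt6, at 6.29 and 5.04 on each array.

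A range over 0.5 log2 between arrays was found for 25 of the 149 genes (13.1% of all genes had one). Identical values on all 3 arrays were found for 56 of the 149 (37.6%), against 55.2% of all genes. Such ties are not evidence that kidneys did not differ. A range over 1 log2 between the highest and lowest array was found for 11 (5.07% of all genes had one). Besides Rab11b, Vamp7, Rab18, Stx4a, Dnm1, Vamp4, Rab5b, Vamp5 and Rab2a, given above, these were Ap3s2 and Snx19. Ap3s2 had 5.93, 5.93 and 7.22 on replicates 1, 3 and 5, and Snx19 had 5.62, 6.74 and 5.66. Without the array that stood apart, each was called below, Ap3s2 at adjusted p = 0.0117 without replicate 5 and Snx19 at adjusted p = 0.00182 without replicate 3.

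Replicate 3 was the array farthest from the other two for 9 of these 11 genes, and for 55% of the 1011 genes with such a range among all measured. It was the lowest for Rab11b, Stx4a, Vamp4, Rab5b, Vamp5 and Rab2a and the highest for Rab18, Dnm1 and Snx19. Without replicate 3, 2 of the 149 genes had a range over 1 log2, and leaving out any array can only narrow a range. The endothelial markers were lowest on the same array, as given above, and their part in these ranges was not tested. The median deviation from the mean of the arrays, over the 93 trafficking genes without identical values, was -0.04 on replicate 3, against 0.02 and 0.03 on replicates 1 and 5.

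**Figure D3:**
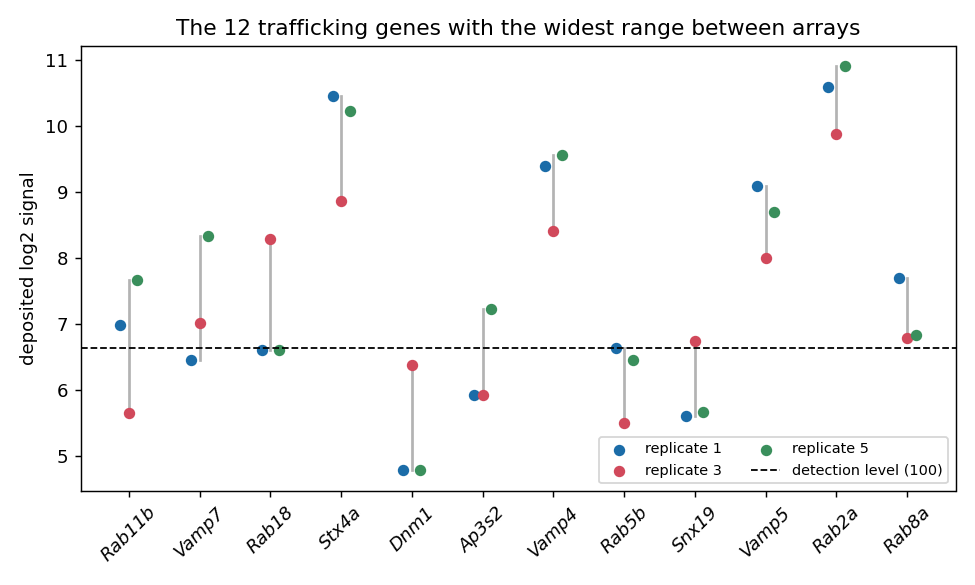
Deposited log2 signal on replicates 1, 3 and 5 (points, set slightly apart for reading, with a grey line from lowest to highest) of the 12 trafficking genes with the widest range between arrays, and the detection level of 100 as a dashed line. Replicate 3 stands apart for 9 of the 11 genes with a range over 1 log2, below the other arrays for Stx4a at 8.86 and above them for Rab18 at 8.29.

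Promoters were examined for what these genes share beyond their symbols. RefSeq promoters of the mouse assembly GRCm38.p6 were matched to 121 of the 149 genes (81.2%) by Entrez identifier, and the 250 bases before each start were used. The count of CpG dinucleotides varied widely among the trafficking genes, and Vamp8, called above, had 3, as did Rab17, Rab42 and Stx19, called below. Those called above had a median of 19.8 CpG dinucleotides in these bases and those called below had 15, while the medians were 18 and 8 over all genes called above and below. The quartiles of the trafficking genes called below, 8.25 and 20.8, overlap those of all genes called below, 3 and 17. No test was made, and genes are not replicates.

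**Figure D4:**
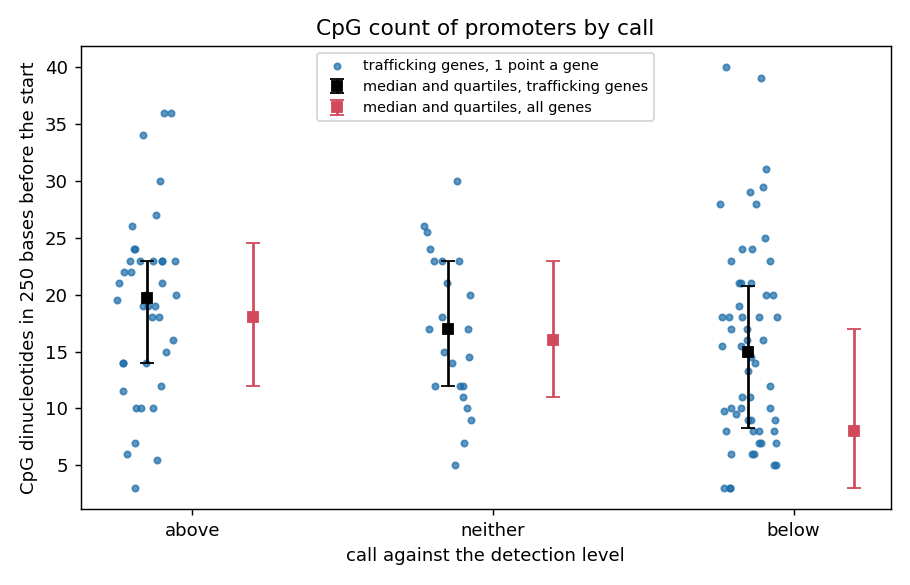
CpG dinucleotides in the 250 bases before the start (vertical axis, count) of trafficking genes by their call against the detection level (blue points, 1 per gene, spread sideways for reading), with medians and quartiles for these genes (black) and for all genes with the same call (red). The medians were 19.8, 17 and 15 for trafficking genes and 18, 16 and 8 for all genes.

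The ETS core CCGGAAG, searched on both strands (CTTCCGG on the other), was found in 6 of 40 trafficking genes called above (15%) and 3 of 58 called below (5.17%). Over all genes, it was in 18.8% of those called above and 8.28% of those called below, so these shares were not higher among the trafficking genes. ETS factors govern many endothelial genes, and this core is also common in promoters of ubiquitous genes. A match is a run of letters and not a measured site. The E-box CACGTG, the same on either strand, was in 5 of the 40 (12.5%, against 10.9% of all genes called above), and TATAAA, on either strand, in 1 (2.5%, against 7.65%).

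The promoters with the ETS core nearest to the start among genes called above were those of Ap2s1, Ap2b1, Rab11a and Rab24. They are printed to show where the core lies in a recycling Rab, a late Rab and AP-2 subunits. Each line gives the 250 bases before the start, 5′ to 3′ on the strand of the gene, with the core in capitals. Those of Ap2s1 (chr7:16738194-16738443) and Ap2b1 (chr11:83302447-83302696) are on the plus strand, and those of Rab11a (chr9:64737757-64738006) and Rab24 (chr13:55321981-55322230) on the minus strand.
Ap2s1: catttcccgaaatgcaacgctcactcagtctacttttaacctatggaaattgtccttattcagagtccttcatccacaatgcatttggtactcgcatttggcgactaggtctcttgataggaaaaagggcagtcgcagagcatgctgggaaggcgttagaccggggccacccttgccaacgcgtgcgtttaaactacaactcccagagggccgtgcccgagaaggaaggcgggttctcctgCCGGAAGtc
Ap2b1: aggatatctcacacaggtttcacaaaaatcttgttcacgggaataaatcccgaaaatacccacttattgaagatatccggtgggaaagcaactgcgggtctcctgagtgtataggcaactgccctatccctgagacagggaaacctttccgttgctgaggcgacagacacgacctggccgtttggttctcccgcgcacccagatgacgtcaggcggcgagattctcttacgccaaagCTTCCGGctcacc
Rab11a: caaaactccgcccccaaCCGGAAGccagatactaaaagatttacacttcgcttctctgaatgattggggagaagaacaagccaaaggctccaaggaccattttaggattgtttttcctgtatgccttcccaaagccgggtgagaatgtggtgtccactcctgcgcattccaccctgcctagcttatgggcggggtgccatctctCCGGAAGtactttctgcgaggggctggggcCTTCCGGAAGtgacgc
Rab24: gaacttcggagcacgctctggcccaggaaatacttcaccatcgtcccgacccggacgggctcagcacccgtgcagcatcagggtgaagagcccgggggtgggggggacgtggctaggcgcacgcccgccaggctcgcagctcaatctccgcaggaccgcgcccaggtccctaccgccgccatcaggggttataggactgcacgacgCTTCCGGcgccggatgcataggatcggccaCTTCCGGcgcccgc

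The core began 9 bases before the start in Ap2s1 and 13 bases in Ap2b1. Rab11a had 4 matches, beginning 233, 46, 16 and 13 bases before the start, of which the last 2 overlap as 1 palindrome. Rab24 had 2 matches, 44 and 14 bases before the start. Among the subunits of AP-2, Ap2m1 and Ap2a2 were called above with no match in this window, and so were Cltc, Clta and Cltb, so the core was not shared by the clathrin coat as a group. Of the genes called below, Ap4e1, Snx17 and Snx29 held it.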

How the data were processed

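GEC were sorted by Tie2-GFP fluorescence, and their RNA was amplified and measured on 3 Affymetrix Mouse Gene 1.0 ST arrays. The authors deposited log2 signals per probe set. Affymetrix Expression Console is named in the submitters' notes on processing, and RMA in the study's account of its own array analysis. The sources used here do not say which arrays were normalized jointly. RMA summarises probes by median polish, which can return equal values when few arrays are fitted, and for 54.1% of one-gene probe sets the 3 arrays had the same value (within 1e-09). Whether this accounts for them was not tested. A spread of 0 is therefore not evidence that kidneys did not differ. Exact values also recur between genes: 70.2% of the values of trafficking genes called below, and 15.6% of those called above, were shared with another gene on the same array.

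Genes were taken from the annotation of the platform. Of 35557 probe sets, 21789 name 1 gene and were tested, 1621 name several and 12147 are not named there. All 149 trafficking genes matched RefSeq (GRCm38.p6) by Entrez identifier. A gene with several probe sets (6 of the 149) was counted by the one with the highest mean. No filter on low values was used. With limma 3.58.1 in R 4.3.3, the mean log2 signal was set against log2 of 100 in a two-sided test, and p-values were adjusted by Benjamini-Hochberg across the 21789 probe sets. The number 100 is that of the study's filter on raw values, whereas the deposited values may be on another scale. The variance prior (SD 0.288, 2.03 degrees of freedom) was taken from the 4406 probe sets with 3 distinct values, since variances of 0 distort it. The prior from all probe sets is an alternative. On simulated data with as many ties, the test recovered genes away from the level but called genes lying at the level more often than its threshold allows, and the prior from all probe sets did so more often still. Calls close to the level are therefore less certain. The labels give a kidney for each array but do not name the animals, so p-values cover these 3 samples alone. Their variance combines the spread among the arrays with the prior. For the 56 of 149 trafficking genes with identical values, it came from the prior alone, and their p-values measure no spread among kidneys. The number of arrays limits the precision.

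The members, classes and lists were chosen with earlier results of these data known. Values per array were printed for a list of core genes (57 of 58 measured, with Rab1 and Rab6 matched as synonyms to Rab1a and Rab6a), the 12 genes with the widest range, the genes nearest to the level, and genes whose call depended on the prior or on the probe set. Genes outside that rule were named to complete a class after their values were seen. Motifs and promoter features were chosen after the calls were known. Promoter features were averaged over the entries of a gene, and a motif was counted if any entry held it.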

Additional observations from a re-analysis of the deposited data

How the results depend on the processing

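The calls depended mainly on the detection level. At a level of 50, 77 of the 149 trafficking genes were above and 47 below, and at 200, 27 were above and 107 below. At the olfactory receptor level of 28.9, 105 were above and 22 below. With Holm adjustment in limma, 0 were above and 0 below, against 45 and 75 at an unadjusted p under 0.05, and 48 of all genes were above. With only probe sets at or over the olfactory receptor level tested, 44 were above and 44 below, because genes under that level were left out. Under the other settings, which were the robust prior, the prior from all probe sets, all probe sets tested, another choice of probe set, median centring, quantile normalization and leaving out an array, 43 to 52 were above and 70 to 77 below. The prior from all probe sets gave 52 above, 45 of them the same genes. Without replicates 1, 3 or 5, between 43 and 50 were above and between 70 and 75 below, and the calls of 7, 7 and 9 genes changed. The number with a range over 1 log2 was between 2 and 9 without an array (2 without replicate 3, 7 without replicate 5), 25 had a range over 0.5 log2 and 1 over 2 log2.

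Named genes that turned to the opposite call are given as mean log2 signal minus the level. At the olfactory receptor level these were Ap2a1 (0.70), Rab27a (0.89), Rab35 (0.44), Rab3d (0.95), Rab4a (0.66), Stx1a (0.42) and Stx3 (0.48), now above. At 200 they were Ap2a2 (-0.59), Snx27 (-0.49), Vps26a (-0.56) and Vps35 (-0.41), now below. With the probe set of lowest mean, Ap3m1 (-0.75) was below. No paired analysis was possible because the 3 arrays form 1 group.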

Other observations

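The coats of the early secretory pathway were also measured in these cells. COPI carries vesicles within the Golgi and back to the ER, and COPII carries them out of the ER. Of 21 measured genes of these coats and their GTPases, 13 were called above the detection level of 100, 5 below and 3 neither, with a median level of 7.31, while 14.9% of all genes were above. The COPI subunit genes Arcn1, Copa, Copb1 and Copb2 were above, at 9.18, 8.84 ± 0.07, 8.34 on each array and 8.32 ± 0.13. The COPI subunit gene Copg1 was below at 6.21 ± 0.03, and Copz1 was called neither at 6.84 on each array. The GTPase gene Arf1, which recruits COPI, was above at 9.40 ± 0.24. Among the COPII genes, Sec13, Sec24b and Sec24c were above, at 7.65 ± 0.33, 7.58 ± 0.05 and 7.01 on each array. Sec23a, Sec24a and Sec24d were below, at 5.58, 5.71 and 4.29 on each array.

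Of 14 measured genes for tethers of endosome and lysosome fusion, 3 (21.4%) were above, 7 below and 4 neither, with a median of 6.23, beside 14.9% of all genes above and 73.8% below. Vps41 of the HOPS complex, which joins late endosomes to lysosomes, was above at 7.40 ± 0.08, and Vps39 of HOPS was neither at 6.90 on each array. Vps53 and Vps54, of the complex that tethers endosome-derived vesicles at the Golgi, were above at 7.60 ± 0.10 and 8.06 ± 0.06. In that complex, Vps51 was below at 6.25 on each array and Vps52 neither at 6.35 ± 0.17. The core genes Vps11, Vps16 and Vps18, which the endosomal tethers share, were below, at 5.77, 6.15 and 5.37 on each array. Vps33a, of the same core, was called neither at 6.66 ± 0.07.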
